A study of Mus musculus with 2 samples.

Results

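Potassium channel genes were taken here as all mouse genes whose symbol is Kcn followed by further letters and a number, which covers the pore-forming subunits and the auxiliary subunits that bear such names. The rule found 92 genes among the 55536 GENCODE M21 genes of the deposited gene tables, and all 92 are annotated as protein-coding. Total RNA was measured in the gastrocnemius, the large calf muscle, of male B6CASTF1/J mice at an age of 10 days. There was 1 group of 2 libraries, called replicate 1 and replicate 2 after their labels, prepared from 300 ng of RNA after ERCC spike-in RNAs had been added. Whole tissue was used, so the values hold the RNA of muscle fibres together with that of vessels, nerves, connective tissue and blood. In such bulk samples, fewer cells of a type and less RNA per cell cannot be told apart. By the labels, the animals carry separate numbers but share a donor code. No second condition is labelled, so no difference between conditions was tested, and a ratio between the libraries compares 2 mice only.

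Potassium channels let potassium ions leave or enter a cell along their gradient and thereby set the resting potential and end the action potential. Voltage-gated channels open on depolarisation and repolarise the membrane, inward rectifiers hold the membrane near the potassium equilibrium potential, calcium-activated channels open when cytosolic calcium rises, and two-pore channels carry a background leak. In skeletal muscle, ATP-sensitive channels built from Kcnj11 link the membrane potential to the energy state of the fibre, and Kcnj2 is known for periodic paralysis when mutated in humans. Auxiliary subunits do not form a pore and change the gating or trafficking of the pore subunits.

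Expected counts totalled 38160786 for replicate 2, against 38874862 for replicate 1, and spike-ins took 0.735% and 0.741% of these. For an effective gene length of 1000 bases, 3 counts equal 0.0924 TPM in replicate 2, against 0.0925 in replicate 1. TPM is the deposited relative abundance scaled by effective length, so levels of different genes can be set side by side. All 5 fast fibre markers exceeded 1 TPM in both libraries, with a summed level of 74100 TPM in replicate 2 and 72700 in replicate 1, as the labelled muscle implies. Summed levels of slow fibre markers were 858 TPM in replicate 2 and 597 in replicate 1, and those of erythroid markers were 1440 and 811 TPM in the same order. Vascular smooth muscle and pericyte markers summed to 437 TPM in replicate 2 and 372 in replicate 1, and endothelial markers to 157 and 145 TPM. The 6 Schwann cell markers summed to 548 TPM in replicate 2 and 628 in replicate 1. Fibroblast markers summed to 2230 TPM in replicate 2 and 2460 in replicate 1, satellite cell markers to 20.1 and 20.6 TPM, and macrophage markers to 29.6 and 32.8 TPM.

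Coding sequences of 7 of the highest members, all of which form pores, are given here. The bases around the selectivity filter, the stretch of the pore that lets potassium pass and holds back sodium, were compared between these genes. Each line gives 51 coding bases, 5′ to 3′, of the transcript that led the gene's level, read from GENCODE M21 transcripts on GRCm38 (mm10). The 15 capital bases encode the filter signature, and they are followed by the codons that leave the filter towards the outer mouth of the pore.
Kcnj11: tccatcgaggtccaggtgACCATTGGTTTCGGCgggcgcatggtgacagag
Kcnj8: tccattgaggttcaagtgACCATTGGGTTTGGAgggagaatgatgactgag
Kcnj2: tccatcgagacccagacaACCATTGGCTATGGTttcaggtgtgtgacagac
Kcnc4: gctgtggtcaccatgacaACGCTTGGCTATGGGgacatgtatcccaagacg
Kcnc1: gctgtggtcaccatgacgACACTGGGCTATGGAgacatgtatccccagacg
Kcna7: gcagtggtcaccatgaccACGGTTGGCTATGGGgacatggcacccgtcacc
Kcnma1: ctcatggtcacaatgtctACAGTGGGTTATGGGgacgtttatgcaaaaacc

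Over the 21 pairs of these windows, between 15 and 46 of 51 bases matched. Kcnc4 and Kcnc1 matched at 46 bases, or 90.2%. Kcnj11 and Kcnj8, the pore subunits of ATP-sensitive channels, matched at 41 bases, or 80.4%. Kcnc4 and Kcna7, of different subfamilies, also matched at 41 bases. Within the 15 filter bases Kcnc4 matched Kcna7 at 14 and Kcnc1 at 12, so such short windows do not rank kinship. The lowest value, 29.4%, was shared by Kcna7 against Kcnj11, Kcna7 against Kcnj8 and Kcnma1 against Kcnj8. The 12 pairs of an inward rectifier with another member matched at 15 to 28 bases, the 3 pairs within the inward rectifiers at 30 to 41, and the 6 pairs of the others at 31 to 46. The windows lie at chr7:46099478-46099528 on the minus strand for Kcnj11, chr6:142566430-142566480 on the minus strand for Kcnj8 and chr11:111072189-111072239 on the plus strand for Kcnj2. Those of the voltage-gated members lie at chr3:107447781-107447831 on the minus strand for Kcnc4, chr7:46427955-46428005 on the plus strand for Kcnc1 and chr7:45409443-45409493 on the plus strand for Kcna7. The window of Kcnma1 lies at chr14:23528395-23528445 on the minus strand. Similarity of this kind matters for counting only where it is long and exact. None of the 50-base stretches of Kcnj11, Kcnj8, Kcnj12, Kcna7, Kcnc4 or Kcnma1 transcripts occurred in a transcript of another gene on the same strand. Kcnc1 shared 0.532% of its stretches, and Kcnj2 shared 0.13%.

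A member was called detected at 1 TPM or more in both libraries. By this rule 26 of 92 members, or 28.3%, were detected, against 51.4% of all 22028 protein-coding genes. The median level over the 92 members was 0.242 TPM, against 1.36 TPM over protein-coding genes, and among detected genes the median was 2.92 TPM for the members and 8.47 TPM for protein-coding genes. Thus most of the family was at a low level in this muscle, and the detected members were mostly below the middle of the detected genes. The members' summed level was 181 TPM in replicate 2 and 191 in replicate 1. The 10 highest members held 76.2% of that sum in replicate 2 and 75.0% in replicate 1. Only 6 members reached 10 TPM in both libraries. Among protein-coding genes, the highest member ranked at 2126. Of the other 66 members, 2 reached 1 TPM in 1 library only, and 4 had no count in either library. The 4 members without a count were Kcnj1, Kcnk15, Kcnk16 and Kcnk18, for which 3 counts would give between 0.0274 and 0.065 TPM.

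**Figure D1:**
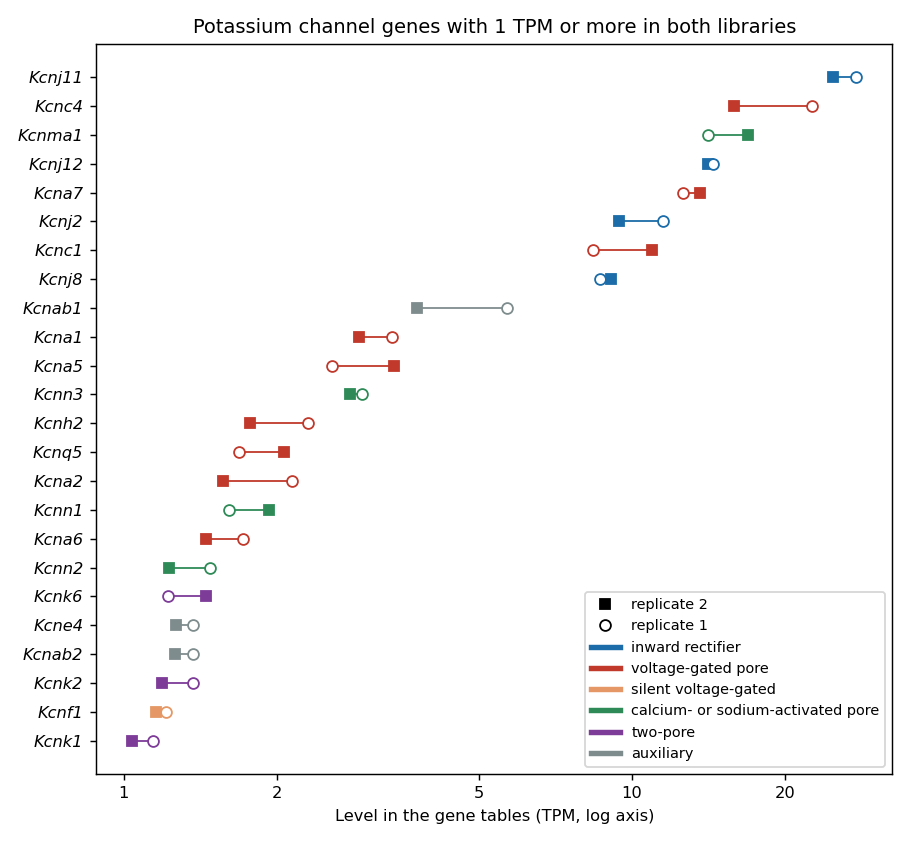
Levels of 24 of the members with 1 TPM or more in both libraries, on a log axis in TPM, with replicate 2 as filled squares, replicate 1 as open circles and colour for the channel class. Kcnj11 leads at 24.8 and 27.6 TPM, and a gap separates Kcnj8, at 9.08 and 8.65 TPM, from Kcnab1, at 3.78 and 5.69 TPM.

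Inward rectifiers held 32.8% ± 0.752 (SD, n = 2) of the members' summed TPM, with 4 of 15 genes detected. Kcnj11, the pore subunit Kir6.2 of the ATP-sensitive channel, was the highest member, at 24.8 TPM in replicate 2 and 27.6 in replicate 1. Kcnj12, the strong inward rectifier Kir2.2, had 14.1 TPM in replicate 2, against 14.4 in replicate 1. Its relative Kcnj2, which encodes Kir2.1, had 9.42 TPM in replicate 2, against 11.5 in replicate 1. Kcnj12 was thus the higher of the pair in both mice, with a ratio of 1.38 ± 0.174 (SD, n = 2). Kcnj8, the Kir6.1 pore subunit known from vascular ATP-sensitive channels, had 9.08 TPM in replicate 2, against 8.65 in replicate 1. The level of Kcnj11 was 2.97 ± 0.327 (SD, n = 2) times that of Kcnj8. The other 11 inward rectifiers were below 1 TPM, and the highest of them averaged 0.38 TPM. This group holds Kcnj3, Kcnj5, Kcnj6 and Kcnj9, the G-protein-gated channels, of which Kcnj3 was highest with 42 counts in replicate 2 and 60 in replicate 1.

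ATP-sensitive channels need a sulfonylurea receptor beside the pore. Abcc9, which encodes SUR2, had 49.0 TPM in replicate 2, against 54.3 in replicate 1. Abcc8, which encodes SUR1, the receptor of pancreatic beta cells, had 0.78 TPM in replicate 2, against 1.08 in replicate 1. Abcc9 was thus 56.6 ± 8.89 (SD, n = 2) times as high as Abcc8. The level of Kcnj11 was 0.498 of the summed receptor level in replicate 2 and 0.499 in replicate 1. The genes lie in pairs in the genome, yet the pairs are not the combination that is highest here. Kcnj11 lies on chromosome 7 (46093953 to 46100764, minus strand), 3758 bases from Abcc8, while Abcc9 lies on chromosome 6, 16247 bases from Kcnj8 (142564837 to 142571614, minus strand), with no other protein-coding gene between the members of either pair. So the highest pore gene and the highest receptor gene come from different pairs.

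Among the 92 members, voltage-gated pore genes held the largest share of the 6 classes, 44.3% ± 0.257 (SD, n = 2), with 11 of 30 genes detected. This order holds for genes that meet the rule: Kcne1l, an auxiliary gene outside it, alone had 103 TPM in replicate 2 and 93.1 in replicate 1, above the 79.8 and 85.2 TPM that the voltage-gated pores summed to. Kcnc4, the rapidly inactivating, A-type channel Kv3.4, had 15.9 TPM in replicate 2, against 22.6 in replicate 1. Kcnc1, the delayed rectifier Kv3.1, had 10.98 TPM in replicate 2, against 8.37 in replicate 1. The Kcnc4 to Kcnc1 ratio was 1.45 in replicate 2 and 2.71 in replicate 1, so Kcnc4 was higher in both mice but by an unequal factor. Kcna7, a Kv1 channel known from muscle and heart, had 13.7 TPM in replicate 2, against 12.6 in replicate 1. It was 4.22 ± 0.684 (SD, n = 2) times as high as Kcna1, the Kv1.1 channel known from episodic ataxia in humans, which had 2.90 TPM in replicate 2, against 3.37 in replicate 1.

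Other members of the Kv1 family were lower. Kcna5, the Kv1.5 channel known from atrium and vessels, had 3.40 TPM in replicate 2, against 2.57 in replicate 1. Kcna2, the Kv1.2 channel of myelinated axons, had 1.57 TPM in replicate 2, against 2.14 in replicate 1. Kcna6 had 1.45 TPM in replicate 2, against 1.72 in replicate 1. Thus 5 of 8 Kv1 genes were detected, and Kcna7 held 57.2% of their sum. Kcna5, Kcna1 and Kcna6 lie next to each other on chromosome 6, from 126532551 to 126740674 on the minus strand with no other protein-coding gene between them, and all 3 were detected. In the similar group on chromosome 3, which begins with Kcna3 at 107036169 and ends with Kcna10 at 107195721, only Kcna2 was detected. Kcna3, a channel known from lymphocytes, had 0.18 TPM in replicate 2, against 0.12 in replicate 1, and Kcna10 had 0.06 and 0.08 TPM in the same order. Kcna5 and Kcna6 shared 2.81% and 1.33% of their 50-base stretches with each other, so a small part of their reads cannot be assigned by sequence. Of the 50-base stretches of Kcna6, 38.8% also occurred, as their reverse complement, in the antisense gene Gm26673. Gm26673 was listed at 0 counts in both libraries.

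Among the Kcnq genes, whose products carry slow, non-inactivating currents, Kcnq5 had 2.07 TPM in replicate 2, against 1.69 in replicate 1. Kcnq1, the cardiac and epithelial member, had 0.64 TPM in replicate 2, against 0.68 in replicate 1, and was not detected by that estimate. Its deposited posterior mean was 1.74 TPM in replicate 2, against 1.81 in replicate 1, and in neither library did the deposited interval around that mean hold its TPM. The antisense gene Kcnq1ot1 overlaps Kcnq1 on the other strand. Kcnq1ot1 had 1927 counts in replicate 2 and 3119 in replicate 1, against 46 and 65 for Kcnq1. In TPM, which is scaled by length, Kcnq1ot1 had 0.64 in replicate 2 and 1.03 in replicate 1, against 0.64 and 0.68 for Kcnq1. Its part in the counts of Kcnq1 was not tested. Kcnh2, the ERG1 channel that repolarises the heart, had 1.77 TPM in replicate 2, against 2.31 in replicate 1, and was the detected member among 8 Kcnh genes. None of the 3 Kcnd genes, which encode the Kv4 family of transient channels, was detected, and their summed level was 0.45 TPM in replicate 2 and 0.85 in replicate 1. Dpp6, an auxiliary protein of these channels, had 1.36 TPM in replicate 2, against 1.85 in replicate 1, while its relative Dpp10 was below 0.1 TPM.

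Silent voltage-gated subunits, which form channels only together with other voltage-gated subunits, held 2.50% ± 0.218 (SD, n = 2), with 1 of 10 genes detected. That gene was Kcnf1, with 1.16 TPM in replicate 2 and 1.21 in replicate 1. Both members that reached 1 TPM in 1 library only belong to this class. Kcns1 had 0.91 TPM in replicate 2, against 2.04 in replicate 1, and Kcng2 had 1.32 TPM in replicate 2, against 0.73 in replicate 1. Amigo1, a cell adhesion protein known as a channel partner, had 11.1 TPM in replicate 2, against 13.4 in replicate 1.

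Calcium- and sodium-activated pore genes held 12.1% ± 1.71 (SD, n = 2), with 4 of 8 genes detected. Kcnma1, the pore of the large-conductance BK channel, had 17.0 TPM in replicate 2, against 14.1 in replicate 1. Its beta subunits Kcnmb1 to Kcnmb4 were all below 1 TPM, and Kcnma1 was 14.8 ± 0.513 (SD, n = 2) times as high as their sum. Gamma subunits of BK channels were higher: Lrrc38 had 7.38 TPM in replicate 2, against 10.3 in replicate 1, and Lrrc55 had 2.02 TPM in replicate 2, against 2.51 in replicate 1. The other gamma genes, Lrrc26 and Lrrc52, were below 0.2 TPM. The small-conductance channels were represented by 3 of 4 Kcnn genes. Kcnn3, the SK3 channel known from denervated and immature muscle, had 2.79 TPM in replicate 2, against 2.95 in replicate 1. Kcnn1 had 1.93 TPM in replicate 2, against 1.61 in replicate 1, and Kcnn2 had 1.23 TPM in replicate 2, against 1.48 in replicate 1. Kcnn4, the intermediate-conductance channel of blood cells, had 0.19 TPM in replicate 2, against 0.06 in replicate 1.

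Two-pore channels held 2.99% ± 0.0596 (SD, n = 2), with 3 of 14 genes detected, all near the threshold. Kcnk6 had 1.45 TPM in replicate 2, against 1.22 in replicate 1. Kcnk2, the mechanosensitive TREK1 channel, had 1.19 TPM in replicate 2, against 1.37 in replicate 1. Kcnk1, the TWIK1 channel, had 1.04 TPM in replicate 2, against 1.14 in replicate 1. Kcnk13 was just below the threshold, with 0.85 TPM in replicate 2 and 0.86 in replicate 1. By the lower of the 2 values, Kcnf1 stood just above it beside Kcnk1, and Kcns1 just below it beside Kcnk13.

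Auxiliary subunits held 5.26% ± 0.54 (SD, n = 2), with 3 of 15 genes detected. Kcnab1, a cytoplasmic beta subunit of Kv1 channels, had 3.78 TPM in replicate 2, against 5.69 in replicate 1. Kcnab2, of the same family, had 1.26 TPM in replicate 2, against 1.37 in replicate 1. Kcne4, a single-span subunit that binds Kcnq and Kv1 channels, had 1.27 TPM in replicate 2, against 1.37 in replicate 1. None of the 4 Kcnip genes, the cytoplasmic partners of the Kcnd channels, was detected, as was the case for the Kcnd genes themselves. The highest auxiliary gene under the threshold was Kcnmb4, with 0.90 TPM in replicate 2 and 0.77 in replicate 1.

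**Figure D2:**
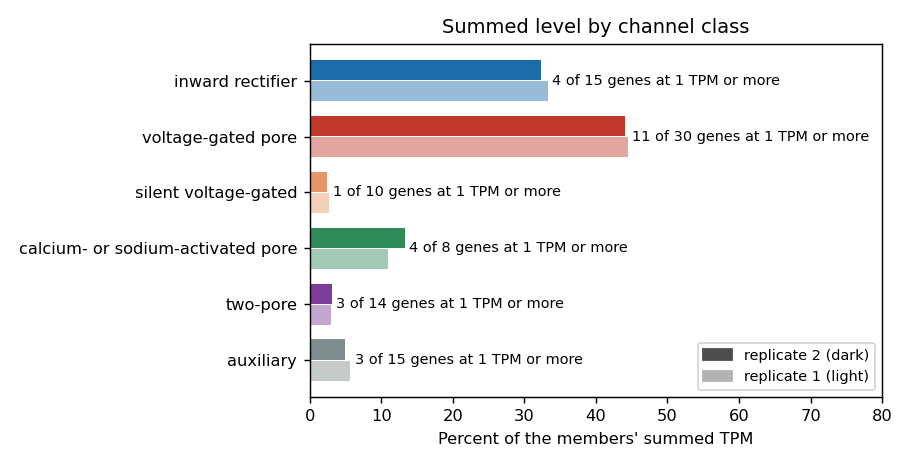
Percent of the members' summed TPM held by each channel class, as bars from 0 with replicate 2 in dark and replicate 1 in light colour, with the number of detected genes beside each bar. Voltage-gated pores at 44.1% and 44.5% and inward rectifiers at 32.3% and 33.3% hold most of the sum in both mice.

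Neighbours in the order of levels often had overlapping values. Of the 25 neighbouring pairs among the 26 detected members, 18 had ranges over the 2 mice that overlapped. In the other 7 the ranges were apart, among them Kcnj11 over Kcnc4, Kcnj12 over Kcna7, Kcna7 over Kcnj2, Kcnab1 over Kcna1, Kcnn3 over Kcnh2, and Kcnf1 over Kcnk1. The ranges of Kcnc4 and Kcnma1, which follow Kcnj11, overlapped. With 2 values per gene, ranges that are apart do not settle an order. For Kcnf1 and Kcnk1 the deposited intervals around the posterior mean overlapped in replicate 2, at 0.98 to 1.32 and 0.818 to 1.39 TPM.

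Other genes of membrane excitability give the scale of these levels. Scn4a, the muscle sodium channel, had 54.2 TPM in replicate 2, against 61.5 in replicate 1, which was 2.20 ± 0.0305 (SD, n = 2) times Kcnj11. Clcn1, the muscle chloride channel, had 25.3 TPM in replicate 2, against 31.8 in replicate 1, and was 1.09 ± 0.0919 times Kcnj11. Cacna1s, the voltage sensor of the T-tubule, had 218 TPM in replicate 2, against 245 in replicate 1. Thus the highest potassium channel gene was at the level of the chloride channel.

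Cation channels of intracellular membranes, which are no members, were also detected. Tmem38a, the trimeric channel of the muscle sarcoplasmic reticulum that carries potassium as counter-ion, had 431 TPM in replicate 2, against 424 in replicate 1. Tmem38b had 22.2 TPM in replicate 2, against 24.1 in replicate 1, and Tmem175, a lysosomal potassium channel, had 2.68 TPM in replicate 2, against 2.89 in replicate 1. Akap9, an anchoring protein of Kcnq1 channels, had 16.3 TPM in replicate 2, against 20.7 in replicate 1. None of the 5 genes listed for hyperpolarisation-activated HCN channels reached 1 TPM.

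The 2 mice were compared gene by gene for the 46 members that had 20 or more expected counts on average, among them all 26 detected members. The other 46 had too few counts. In replicate 2 relative to replicate 1, 23 members were higher and 23 lower, and the median log2 ratio was -0.02, or 0.03 in the second kind of table, against 0.01 over 13137 protein-coding genes. Only 1 member was past 2-fold, or 2.17%, against 1.08% of protein-coding genes. It was higher in replicate 1, as were 0.655% of protein-coding genes past 2-fold in that direction. Without the filter on counts 20 members were past 2-fold. No share of protein-coding genes is given for that setting, so the 20 cannot be set against the 1.08%. The exact 95% counting interval of the ratio excluded 1 for 15 members, or 32.6%, against 32.3% of protein-coding genes. Of the 15, 5 were higher in replicate 2 and 10 in replicate 1. The share is near the background. The members' median absolute log2 ratio was 0.25 and that of protein-coding genes was 0.12. From a mean count of 100 upwards, the median was 0.19 over 25 members and 0.11 over protein-coding genes. Counts were not matched between the members and protein-coding genes, and a ratio of lower counts is less precise. The part of counting error in these medians was not tested.

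The member past 2-fold was Kcns1, with 77 counts in replicate 2 and 173 in replicate 1. Its log2 ratio was -1.09, with a 95% counting interval between -1.51 and -0.70. Kcns1 encodes a silent subunit. Kcnj15 had 17 counts in replicate 2 and 36 in replicate 1, at a log2 ratio of -0.99, and Kcnh7, an ERG channel, had 67 and 128 counts, at -0.86. Kcna5 was highest in the other direction, with 305 counts in replicate 2 and 230 in replicate 1, at a log2 ratio of 0.48 and an interval between 0.23 and 0.73. Kcnc1 had 2636 counts in replicate 2 and 1993 in replicate 1, at 0.47, and Kcnip3 had 23 counts in replicate 2 and 18 in replicate 1, at 0.41.

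Among the highest members, Kcnc4 was lower in replicate 2, with 1842 counts against 2621 in replicate 1, at a log2 ratio of -0.44 and an interval between -0.53 and -0.35. So the 2 Kv3 genes differed between the mice in opposite directions. Kcnma1 was higher in replicate 2, at 0.27, with 2772 counts there and 2409 in replicate 1. Kcnj11 and Kcnj2 were lower in replicate 2, at -0.23 and -0.22, while Kcnj12 was at 0.04 with an interval between -0.09 and 0.17. These intervals cover counting error only and say nothing of the spread over mice. Slow fibre markers were higher in replicate 2 in 4 of 4 genes, with a median log2 ratio of 0.61. Vascular smooth muscle and pericyte markers were higher in 7 of 7, with a median of 0.36. Erythroid markers were higher there in 3 of 3 genes, endothelial markers in 5 of 5 and fast fibre markers in 4 of 5, with medians of 0.81, 0.21 and 0.13. Satellite cell markers were higher in 3 of 4 and macrophage markers in 2 of 4. Schwann cell and fibroblast markers went the other way, with 1 of 6 and 1 of 5 higher in replicate 2. The part of these cell types in the ratios of Kcnc4, Kcnc1, Kcna5 and the other members was not tested.

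**Figure D3:**
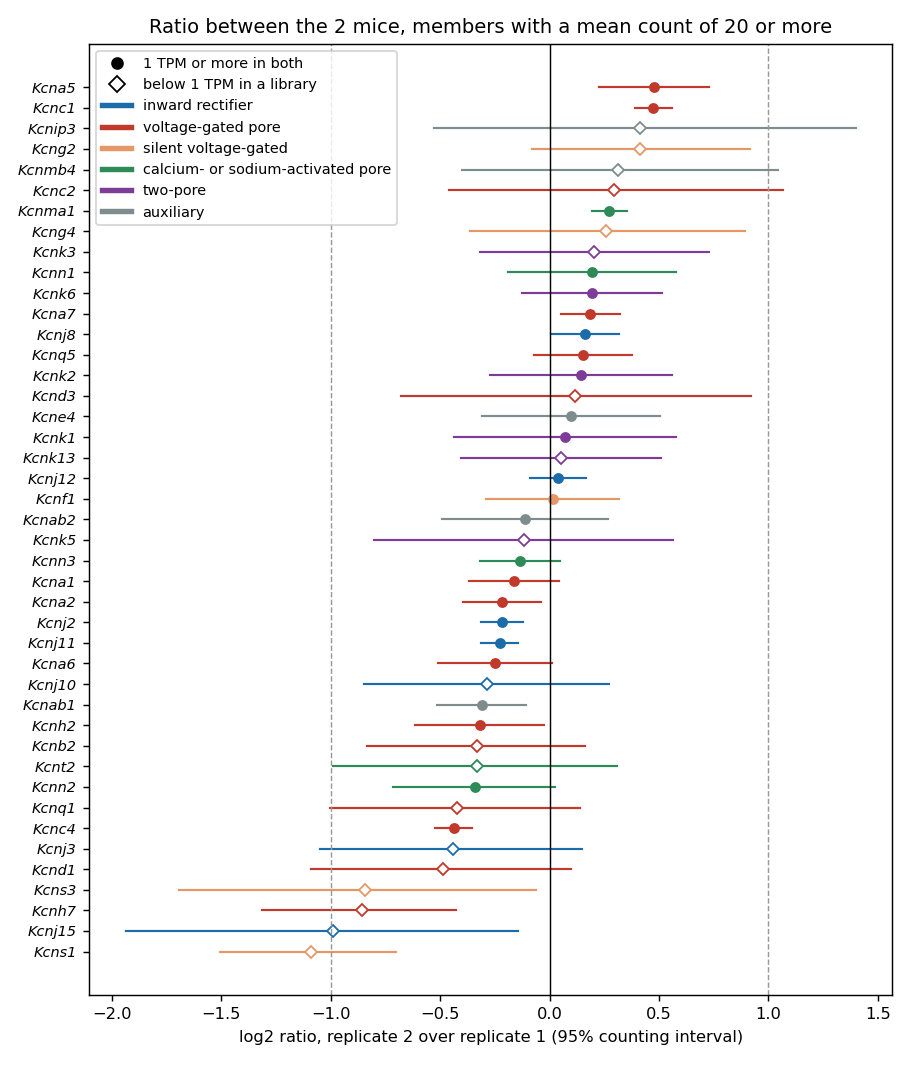
log2 ratio of replicate 2 over replicate 1 for 43 members with a mean count of 20 or more, with exact 95% counting intervals as lines, filled circles for detected and open diamonds for other members, and dashed lines at 2-fold. Kcna5 at 0.48 is at the top and Kcns1 at -1.09 at the bottom, beyond the dashed line.

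Below a mean count of 20 lay 42 members with some counts. Their summed count was 188 in replicate 2 and 296 in replicate 1, so that replicate 1 held 61.2% of it, against 54.9% for the 3937 protein-coding genes in the same range. The counting interval lay on the side of replicate 1 for 6 of the 42, or 14.3%, against 4.45% of those genes, and on the side of replicate 2 for 1, against 1.7%. Members of these kinds are named here after their values had been seen. Kcnq3 had 3 counts in replicate 2 and 21 in replicate 1. Kcnh5 had 5 counts in replicate 2 and 22 in replicate 1. Kcnd2, an A-type channel, had 3 counts in replicate 2 and 13 in replicate 1. Kcnk9 had no count in replicate 2 and 9 in replicate 1, and Kcnip4 had 9 and 23. The exception in the other direction was Kcnn4, with 12 counts in replicate 2 and 3 in replicate 1.

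Neuron markers were higher in replicate 1. Their summed level was 0.12 TPM in replicate 2 and 2.01 in replicate 1, and none of the 6 reached 1 TPM in either library. Syt1, a synaptic vesicle protein, had no count in replicate 2 and 70 in replicate 1. Tubb3, the neuronal tubulin, had 1 count in replicate 2 and 44 in replicate 1, and Snap25 had none in replicate 2 and 20 in replicate 1. Nefl had no count in replicate 2 and 14 in replicate 1, Nefm had 4 and 7, and Rbfox3 had 5 and 11. Over the 6 genes this was 10 counts in replicate 2 and 166 in replicate 1. The part of neuronal RNA in the counts of Kcns1, Kcnh7 and the low members was not tested.

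**Figure D4:**
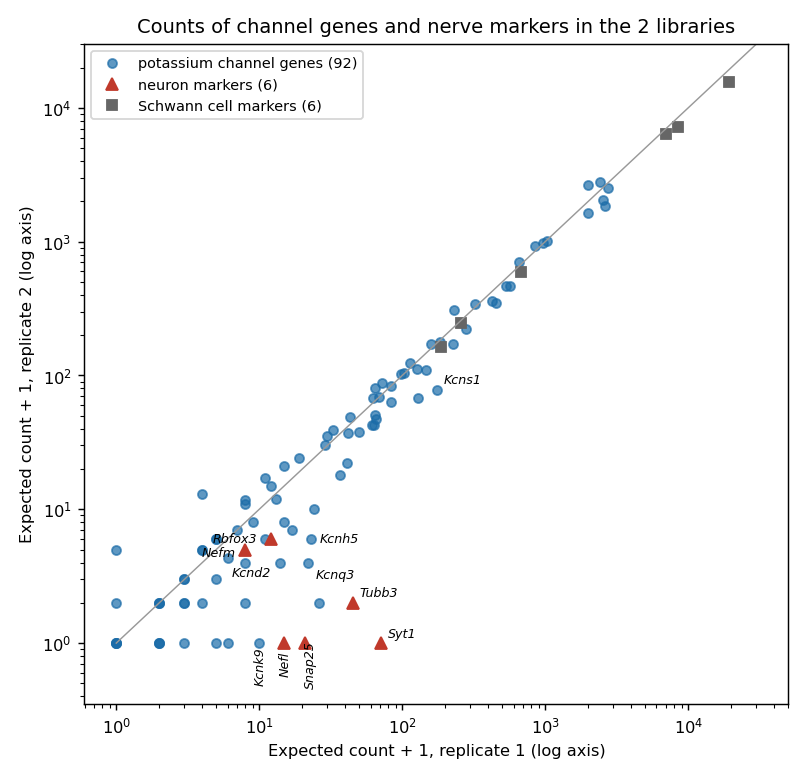
Expected counts plus 1 of the 92 members, 6 neuron markers and 6 Schwann cell markers in replicate 1 (horizontal) and replicate 2 (vertical), both on log axes, with the line of equal counts in grey. Syt1, with no count in replicate 2 and 70 in replicate 1, and Kcnq3, with 3 and 21, lie far below the line, while Schwann cell markers lie close to it.

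The transcript tables show which annotated forms made up each level. The median share of protein-coding transcripts over the 26 detected members was 96.2%, and in 16 of them it was over 90%. Kcnc4, Kcna7, Kcnj2, Kcna5 and Kcnf1 have 1 annotated transcript each. Kcnj12 was almost wholly Kcnj12-202, at 97.3% in replicate 2 and 97.0% in replicate 1. Kcnj11 was mainly the single-exon form Kcnj11-205, at 81.4% in replicate 2 and 91.6% in replicate 1.

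Kcnn3 and Kcnk2 had the lowest coding shares of the 26, 53.0% and 51.8% on average, a ranking that the second kind of table did not share. Of the level of Kcnn3, 42.7% in replicate 2 and 51.3% in replicate 1 was put on Kcnn3-202, a retained-intron form of 8314 bases, and the rest on the coding form of 2884 bases. The coding part of Kcnn3 was therefore 1.60 TPM in replicate 2 and 1.44 in replicate 1. Kcnk2 was led by Kcnk2-203, annotated as a target of nonsense-mediated decay, at 49.3% in replicate 2 and 47.1% in replicate 1. In the second kind of table Kcnk2-203 held 39.5% in replicate 2 and 24.7% in replicate 1. The coding Kcnk2-206 held 18.2% there in replicate 2 and 48.8% in replicate 1, so in that table the lead differed between the mice. By the mean of both libraries the leading form was the same in both kinds of table for 24 of the 26 members, all but Kcnk2 and Kcnab1. Within single libraries it was the same for 23 members in replicate 2, all but Kcnab1, Kcnab2 and Kcnq5, and for 22 in replicate 1, all but Kcna6, Kcnk2, Kcnma1 and Kcnn3. In the second kind of table Kcnab1-201, the only coding form of Kcnab1, held 45.8% in replicate 2 and 43.4% in replicate 1. The coding form of Kcnn3 held 58.9% and 50.3% there. Kcna6-201, annotated as a target of nonsense-mediated decay, held 90.4% of Kcna6 there in replicate 1 but 0.00187% in replicate 2.

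Kcnma1 has 38 annotated transcripts, and its forms were assigned differently in the 2 mice. Kcnma1-235 took 52.5% in replicate 2 and 25.3% in replicate 1, whereas Kcnma1-233, which has the same length of 3429 bases, took none in replicate 2 and 25.3% in replicate 1. Kcnma1-205, a form of 12094 bases, was steadier, at 22.4% in replicate 2 and 26.5% in replicate 1. Similarly, Kcnab2 was put on Kcnab2-205 at 67.2% in replicate 2 and on Kcnab2-201 at 72.2% in replicate 1, with none of the other form in each. Kcnq5-201 took 29.9% of Kcnq5 in replicate 2 and 66.2% in replicate 1. In the second kind of table Kcnma1-235 held 40.7% in replicate 2 and 38.5% in replicate 1, and Kcnma1-233 almost none in either. Kcnq5-201 held 40.1% and 51.3% there in the same order. Kcnab2-201 held 30.2% and 46.2%, and Kcnab2-205 held 29.2% in replicate 2 and almost none in replicate 1. Forms that share most of their bases cannot be separated reliably by reads, so these differences between the mice are uncertain.

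**Figure D5:**
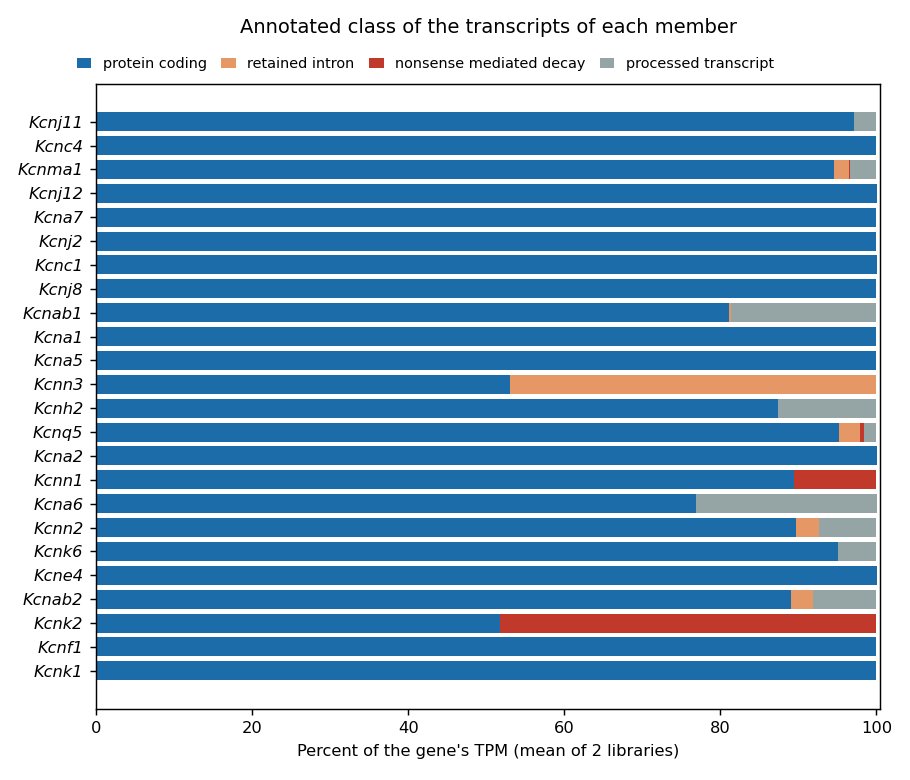
Share of the TPM of 24 detected members by annotated transcript class, as stacked bars from 0 to 100 percent and the mean of both libraries. Coding forms fill most bars, Kcnn3 has 47.0% retained intron, and 48.2% of Kcnk2 lies on a form annotated for nonsense-mediated decay.

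The second kind of deposited transcript table, summed per gene, gave a higher TPM at the median gene. The median log2 difference to the gene tables was 0.55 over protein-coding genes and 0.49 over the 28 members with a mean of 1 TPM or more. With this common shift left in, 1 of the 28 was past 2-fold, against 8.71% of protein-coding genes. None was past it after the shift had been taken out, against 1.7%. Over 28 members such small counts do not set the members apart from protein-coding genes. The member past 2-fold was Kcnab1, with 9.06 TPM in replicate 2 and 10.5 in replicate 1 in the second table, at a log2 difference of 1.04, or 0.49 without the shift. Kcna2 was lowest, at -0.36 without the shift. In the gene tables the 7SL genes Rn7s1 and Rn7s2 took 29.8% of all TPM in replicate 2 and 30.2% in replicate 1. Without these genes 31 members would be detected. The share of detected protein-coding genes under that rescaling is not given here.

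Antisense and overlapping genes limit some values. The sources used here do not say whether strand entered the counting, so reads of such partners cannot be told apart. Of the 26 detected members, 12 overlap a gene on the other strand and 4 overlap one on the same strand. Besides Kcna6, opposite-strand stretches of 50 bases made up 9.26% for Kcnk2, 6.82% for Kcnn2, 5.82% for Kcnk1 and 5.45% for Kcnma1. The partner of Kcnma1, 4930519K11Rik, had 5 counts in each library, and that of Kcnk2, A430027H14Rik, had 1 count in each. Kcnab2 shared 1.33% of its stretches with Gm16334. The deposited interval around the posterior mean TPM did not hold the TPM of 27 members in at least 1 library. Of these only Kcnab2 and Kcnk2 were detected, and Kcnq1, described above, was not. The 4 members without a count are among the 27. No share of protein-coding genes is given for this count, so it is not read as particular to the members. For Kcnab2 the interval ran between 1.64 and 3.25 TPM in replicate 2 and between 1.75 and 3.26 TPM in replicate 1, above its TPM in each.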

How the data were processed

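Total RNA of 2 gastrocnemius libraries was measured. Per the file headers, the authors deposited, for genes and for transcripts, expected counts with their posterior means and TPM, laid out as RSEM does. The notes beside the files name mm10 and GENCODE M21. For transcripts the deposited percent of the gene's level is listed as well. Another deposited file per library, laid out as kallisto does, has estimated counts and TPM of transcripts. For the aligner and all versions, the sources used here name none. Deposited TPM sums include the spike-ins.

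The 92 members were found by symbol and mapped by gene identifier. Expected counts were rounded to whole numbers and scaled with TMM (edgeR 4.0.16, R 4.3.3) fitted to endogenous genes from a mean count of 10 upwards. A prior count of 0.5 entered each log2 ratio. Exact (Clopper-Pearson) 95% binomial intervals rest on the 2 counts and library sizes, so they reflect counting error alone. Reads lacking molecular identifiers may repeat a molecule, in which case the intervals are too narrow. With 1 group of 2 libraries there are no degrees of freedom for a test, so none was made. The tables were compared after rescaling to the genes both list, with a pseudocount of 0.1 TPM. Shared 50-base stretches were sought in all GENCODE M21 transcripts. The interval was tested on simulated data. Alternatives covered the second table, posterior means, DESeq2 1.42.0 size factors, library and spike-in totals, filters, pseudocounts and leaving out each replicate. Python 3.11.15 was used with numpy 2.4.6, pandas 2.3.3, scipy 1.17.1 and matplotlib 3.10.9.

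Members, gene lists and alternatives were chosen with earlier results of these data known, and 6 alternatives were added after seeing the data. Named with values are all members with 1 TPM or more in both libraries, the highest of each class, the 2 members on each side of 1 TPM, the 3 highest and 3 lowest ratios, and members past 2-fold between tables. Any other member named was picked with its values in view. Some items are not reported here.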

Additional observations from a re-analysis of the deposited data

Results flagged for a closer look

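Signals were also present in genes that bear a Kcn symbol but fall outside the rule, which asks for a number at the end. Kcne1l, a protein-coding gene of the Kcne family of auxiliary subunits, averaged 97.9 TPM, with 103 TPM in replicate 2 and 93.1 in replicate 1. That is above every one of the 92 members and above the summed level of the voltage-gated pores, so the order of the classes rests on its being outside the rule. Kcnmb4os2, an antisense gene of Kcnmb4, averaged 0.335 TPM, with 5 counts in replicate 2 and 6 in replicate 1, above the 3 counts that a count of 0 allows. Kcnq1ot1, the antisense gene that overlaps Kcnq1, had 0.64 TPM and 1927 counts in replicate 2, against 1.03 TPM and 3119 counts in replicate 1.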

How the results depend on the processing

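No paired analysis was possible because there is 1 group of 2 libraries. The count of detected members was 26. It was 14 at a threshold of 2 TPM, 33 at 0.5 TPM, 31 in the second table, 28 with posterior means, and 27 without either replicate. Alternative counts of members in this section are given without the matching share of protein-coding genes. Inward rectifiers held 32.8% of the summed TPM, and 31.0% in the second table and 31.4% with posterior means. Voltage-gated pores held 44.3%, and 43.3% with posterior means. Two-pore channels held 2.99%, and 3.22% in the second table and 3.58% with posterior means. Auxiliary subunits held 5.26%, and 6.4% in the second table and 6.51% with posterior means. The count of members past 2-fold between the mice, 1, became 2 with scaling by library totals, 2 by spike-in totals and 20 without a filter on low counts. The median log2 ratio of -0.022 turned to 0.032 in the second table, and no other alternative turned it. The count of members whose interval excluded 1 ranged between 12 and 22. The count past 2-fold between tables, 1, became 2 from a mean of 0.1 TPM, 0 with a pseudocount of 1 TPM, 0 after centring, 2 without replicate 1 and 1 without replicate 2. The median share of coding transcripts, 96.2%, was 91.7% in the second table, 93.0% with posterior means, 96.3% without replicate 1 and 98.7% without replicate 2. The causes were not tested. Depth limits ratios of members with few counts.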
